A study of Mus musculus with 48 samples.

Results

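Chemokines are small secreted proteins that attract cells carrying the matching chemokine receptors, and this account covers the genes of both kinds on a mouse expression array. Members were the probe sets (groups of short probes that read a transcript) with 1 gene symbol in the platform's probe table, where that symbol begins with Ccl, Cxcl, Ccr, Cxcr or Xcl followed by a digit, or with Cx3c. Ccl5 was not included. Of 12422 probe sets other than controls, 42 met the rule and named 37 genes, 23 ligands and 14 receptors. Where several probe sets named a gene, the brightest on average over the 48 arrays stood for it. That applied to 4 genes (Ccl1, Cx3cl1, Cxcl1 and Cxcl12), whose other probe sets were read as well.

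Total RNA came from 4 organs (liver, heart, spleen and lung) of A/J and C57BL/6J mice, which are inbred strains, taken at time 2 and at time 1, in 16 groups of 3 arrays. Per the labels, the 3 animals of a group were male littermates aged 3 months, and no treatment or engineered allele is named. The labels do not say what the times stand for or whether animals of different groups shared a litter, so p-values measure the spread between these animals. The labelled tissues carried their markers in all arrays: the mean log2 level of 8 hepatocyte genes was at least 12.70 in livers and at most 10.34 elsewhere, and that of the B cell genes was at least 12.13 in spleens and at most 10.70 elsewhere.

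Chemokine receptors are G protein-coupled receptors on leukocytes and other cells, and most bind several ligands. Homeostatic chemokines place lymphocytes in lymphoid tissue: Cxcl13 draws Cxcr5-bearing B cells into follicles, Ccr7 guides T cells and dendritic cells into T cell areas, and Cxcl12 retains Cxcr4-bearing cells. Inflammatory chemokines such as Ccl2 recruit monocytes through Ccr2, and Cxcl1, Cxcl2 and Cxcl5 recruit neutrophils through Cxcr2.

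Some arrays carried transcripts of another organ. Exocrine pancreas genes averaged 12.91 to 13.72 in 5 of 12 spleens (2 A/J and 3 C57BL/6J), against 9.87 to 10.77 in the rest, and 13.53 in 1 liver (C57BL/6J, time 2). Scgb1a1, a club cell secretory protein of the airways, lay between 11.72 and 13.81 in 5 of 12 hearts, 1 of them A/J and 4 C57BL/6J. Alb, the albumin gene, lay between 12.06 and 13.39 in 5 of 12 lungs, all of time 1 (3 A/J and 2 C57BL/6J), and between 11.92 and 13.27 in 3 of 12 spleens, which were the 3 A/J spleens of time 2. In 2 hearts (A/J, time 1) the 3′ end of the Gapdh control exceeded its 5′ end by 1.34 and 1.41 log2 units, against 0.08 to 0.30 in the other 10. The same measure ran from 0.64 to 1.96 in lungs, highest in A/J at time 2, from 0.48 to 1.31 in spleens and from 0.16 to 0.39 in livers. Array medians ran from 8.86 to 9.01. By the names of their scan files, the arrays form 4 array runs: all tissues at time 2 share 1, liver and lung at time 1 share another, and spleen and heart at time 1 have 1 each. Tissues were therefore compared at time 2, strains within runs, and a change with time cannot be told apart from a change of run.

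The sequence just upstream of 4 genes that carry the results is shown, to set beside the expression patterns: 2 that are high in spleen (Cxcl13 and Cxcr4), 1 that is high in liver and higher in A/J (Ccl9) and 1 that is lower in A/J lung (Cxcl14). Each is the 250 bases before the RefSeq start, 5′ to 3′ on the gene's strand, in assembly GRCm38.p6, whose sequence is that of C57BL/6J. The regions are chr5:95956689-95956938 (plus strand) for Cxcl13, chr1:128592300-128592549 (minus) for Cxcr4, chr11:83578637-83578886 (minus) for Ccl9 and chr13:56296552-56296801 (minus) for Cxcl14. Capitals mark matches on either strand to TATAAA (core letters of the TATA box), GGG and CC with any 5 bases between (like the sites of NF-kappaB), TTTC repeated after any 2 bases (like an interferon-stimulated element), TTC and GAA with any 3 bases between (like a STAT site) or GGGCGG (a GC box), and adjoining matches may overlap.
Cxcl13: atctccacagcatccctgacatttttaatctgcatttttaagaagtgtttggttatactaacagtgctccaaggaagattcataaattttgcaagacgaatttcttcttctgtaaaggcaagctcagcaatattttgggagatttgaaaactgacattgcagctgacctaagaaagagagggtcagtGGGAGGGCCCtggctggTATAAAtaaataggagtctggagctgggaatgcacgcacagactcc
Cxcr4: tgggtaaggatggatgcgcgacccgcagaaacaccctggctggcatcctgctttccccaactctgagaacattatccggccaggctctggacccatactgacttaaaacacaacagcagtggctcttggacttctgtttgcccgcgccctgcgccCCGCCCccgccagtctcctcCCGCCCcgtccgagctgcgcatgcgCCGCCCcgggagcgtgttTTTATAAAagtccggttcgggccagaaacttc
Ccl9: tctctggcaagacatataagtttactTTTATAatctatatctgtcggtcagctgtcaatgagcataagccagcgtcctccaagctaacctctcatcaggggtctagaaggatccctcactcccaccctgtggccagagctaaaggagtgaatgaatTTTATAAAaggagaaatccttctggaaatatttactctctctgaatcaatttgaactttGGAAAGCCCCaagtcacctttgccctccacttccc
Cxcl14: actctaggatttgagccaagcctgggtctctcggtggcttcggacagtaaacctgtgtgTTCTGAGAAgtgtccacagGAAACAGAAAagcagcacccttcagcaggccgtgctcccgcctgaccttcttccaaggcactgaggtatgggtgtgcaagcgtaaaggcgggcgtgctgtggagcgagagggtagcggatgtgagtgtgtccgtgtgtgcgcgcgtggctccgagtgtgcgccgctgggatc
The Cxcl13 window holds the NF-kappaB-like letters and a TATA box, the Cxcr4 window GC boxes and a TATA box that reads on both strands, the Ccl9 window the NF-kappaB-like letters and TATA boxes, and the Cxcl14 window the interferon-like and the STAT-like letters. Windows were found for 30 of the 37 genes, 32 windows in all. TATAAA occurred in 9 of the 32, against 12.4% of all 32851 windows of the same length, the NF-kappaB-like letters in 18, against 45.8%, the interferon-like letters in 2, against 3.0%, the STAT-like letters in 4, against 7.0%, and the GC box in 4, against 32.7%. A match describes the letters and shows no binding.

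The members covered most of the array's range of levels. Mean log2 levels over 48 arrays ran from 5.62 (Cxcl10, an interferon-induced ligand of Cxcr3) to 11.42 (Cxcl12). The median over the 37 genes was 8.05, against 8.99 over all probe sets. Group means spanned at least 1 log2 unit, which is a 2-fold difference, in 15 of 37 members (40.5%), against 43.5% of all probe sets. That took in 10 of 23 ligands and 5 of 14 receptors. The widest were Cxcr4 at 4.69 log2 units, Cxcl13 at 4.10, Ccl9 at 3.56 and Cxcl14 at 2.51. The 9 members whose group means spanned under 0.5 were the ligands Ccl3, Ccl11, Ccl17, Ccl22 and Cxcl2 and the receptors Ccr3, Ccr8, Ccr9 and Cx3cr1. A probe set whose signal is near background cannot be told from an absent transcript, so a narrow span does not show that a gene was expressed evenly.

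**Figure D1:**
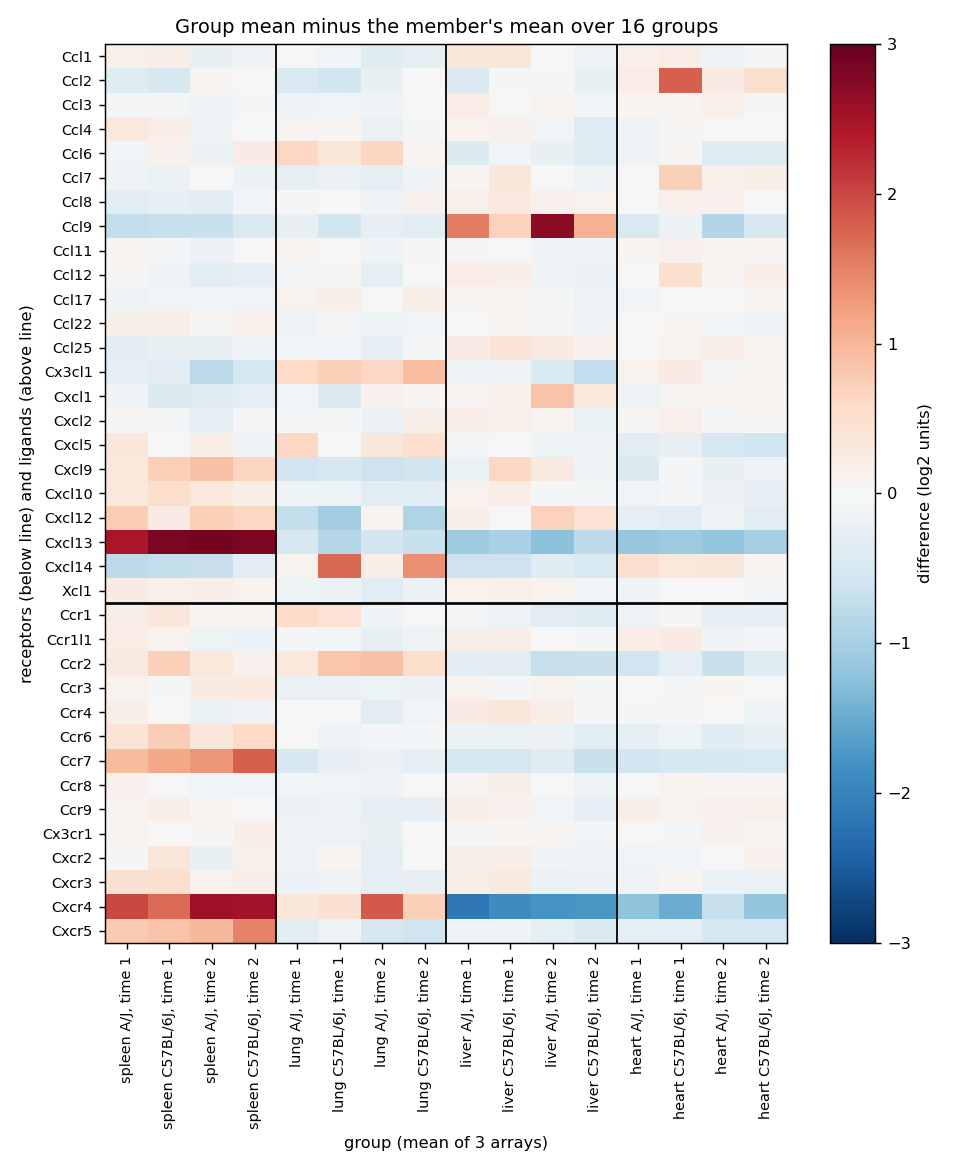
Mean log2 level of each of the 37 members (rows, ligands above the line and receptors below) in each of 16 groups of 3 arrays (columns), minus the member's mean over the 16 groups; red is higher and blue lower. Cxcl13, Cxcr4, Ccr7 and Cxcr5 are high in the spleen columns, Ccl9 in the liver columns and Cxcl14 in the C57BL/6J lung columns.

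Spleen held the clearest tissue pattern. At time 2, 4 of 37 members (10.8%) were enriched, meaning that spleen stood 1 log2 unit or more above each of the others and each contrast had an adjusted p under 0.05 (limma, Benjamini-Hochberg over all 12422 probe sets), against 3.53% of all probe sets. They were the ligand Cxcl13 and the receptors Cxcr5, Ccr7 and Cxcr4. In bulk tissue, more cells of a type and more RNA per cell cannot be told apart.

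Cxcl13, the B cell attractant made by follicular stroma, had 10.36, 10.55 and 10.54 in A/J spleens and 10.30, 10.65 and 10.39 in C57BL/6J spleens of time 2. Lungs of time 2 had 6.96, 7.54 and 6.69 in A/J and 7.16, 6.83 and 6.88 in C57BL/6J. Every spleen stood above every lung. The mean exceeded that of lung, the next tissue, by 3.46 log2 units (SE 0.13, adjusted p 3.43e-17, limma), a 10.99-fold difference. Spleen at time 1 had the same order, with 9.76 to 10.37 in A/J and 10.44 to 10.49 in C57BL/6J, and 1 A/J lung of time 1 reached 8.11.

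Cxcr5, the receptor of Cxcl13, had 10.004, 9.81 and 10.19 in A/J spleens and 10.57, 10.19 and 10.78 in C57BL/6J spleens of time 2. Livers of time 2, the next tissue, had 8.81, 8.57 and 8.88 in A/J and 8.75, 8.57 and 8.46 in C57BL/6J. The groups did not overlap, and spleen was higher by 1.58 log2 units (SE 0.12, adjusted p 2.97e-11, limma). At time 1 the excess was 0.94, under the limit of 1.

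Ccr7 had 9.07, 9.07 and 9.30 in A/J spleens and 9.41, 9.47 and 9.98 in C57BL/6J spleens of time 2. Lungs of time 2 had 7.69, 7.77 and 7.49 in A/J and 7.55, 7.43 and 7.67 in C57BL/6J. Spleen was higher than lung, the next tissue, by 1.79 log2 units (SE 0.12, adjusted p 3.69e-12, limma).

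Cxcr4, the Cxcl12 receptor of many leukocytes and progenitors, had 9.93, 10.33 and 11.24 in A/J spleens and 9.83, 10.43 and 11.15 in C57BL/6J spleens of time 2. In the lungs of time 2 it had 9.81, 9.78 and 9.79 in A/J and 8.898, 8.34 and 8.75 in C57BL/6J. The lowest spleen lay just above the highest lung, and the spread within spleens was wider than for the other 3 genes. Spleen exceeded lung by 1.26 log2 units (SE 0.22, adjusted p 3.82e-05, limma), but by 0.71 in A/J alone, where it was not called. Hearts of time 2 averaged 7.03 ± 0.29 and livers 6.21 ± 0.11 (SD, n = 6 each), so that the order was spleen, lung, heart and liver.

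**Figure D2:**
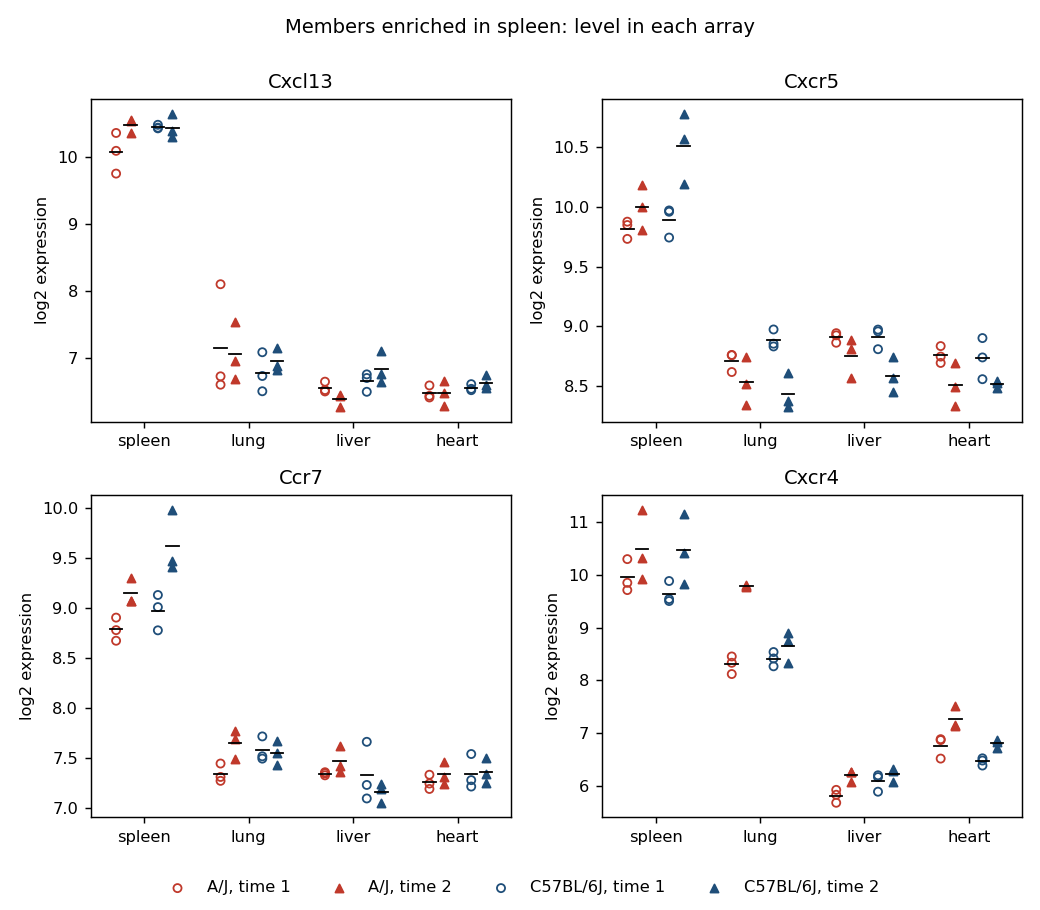
Log2 level of Cxcl13, Cxcr5, Ccr7 and Cxcr4 in each of the 48 arrays, by tissue; red is A/J and blue C57BL/6J, open circles are time 1, filled triangles time 2, and short bars are means of 3 arrays. Every spleen lies above every other array for Cxcl13, Cxcr5 and Ccr7; for Cxcr4, A/J lungs of time 2 (9.78 to 9.81) lie within the range of the spleens of time 1 (9.51 to 10.30).

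Cxcl12 was read by 3 probe sets that differ. The member set had 12.09 ± 0.15 in spleen, 11.98 ± 0.21 in liver, 11.20 ± 0.14 in heart and 11.01 ± 0.55 in lung at time 2 (SD, n = 6 each), and spleen and liver differed by 0.11 (adjusted p 0.481, limma). Of the other sets, 1 was higher in spleen than in each other tissue by at least 1.25 (adjusted p 6.79e-08, limma), and the other differed by -0.11 between spleen and liver (adjusted p 0.334). All 3 were lower in lung than in spleen. Further receptors and ligands were highest in spleen by less than 1 log2 unit with the test passed: Ccr6, a receptor of B cells and dendritic cells, by 0.51, Cxcl9, an interferon-gamma-induced ligand, by 0.70, its receptor Cxcr3 by 0.33, Cxcl10 by 0.29, Ccr3 by 0.24 and Xcl1 by 0.15 (adjusted p 6.7e-06 to 0.0473, limma). They are named without the share of all probe sets that did the same.

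In liver, 1 of 37 members (2.70%) was enriched at time 2, against 4.11% of all probe sets. Ccl9, a Ccr1 ligand of myeloid cells, averaged 12.21 ± 0.93 in livers and 10.06 ± 0.15 in lungs of time 2 (SD, n = 6 each). Liver exceeded lung, the next tissue, by 2.15 log2 units (SE 0.25, adjusted p 7.13e-08, limma). The liver values pool both strains, whose values are given below. Cxcl1, a neutrophil attractant, was also highest in liver, by 0.48 over the next tissue (adjusted p 0.00116), but its other probe set was not (-0.09 against lung, adjusted p 0.436).

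No member was enriched in lung (2.25% of all probe sets were) or in heart (2.51% were). Without the minimum of 1 log2 unit, some members were highest in lung with the test passed, named here without the share of all probe sets. These were the membrane-bound ligand Cx3cl1, by 0.70 over heart (adjusted p 1.41e-06), Cxcl14 by 0.58 (0.0104), the monocyte receptor Ccr2 by 0.46 over spleen (0.00147) and Cxcl5 by 0.38 (0.00537), all by limma. In A/J, Cxcl14 was no higher in lungs (7.84 to 7.91) than in hearts of time 2 (7.91 to 8.10), while C57BL/6J had 8.54 to 9.45 in lungs and 7.55 to 7.93 in hearts. The other Cx3cl1 probe set ran the opposite way and was lowest in lung (-0.25 against spleen, the next tissue), so no direction can be given for the gene. In heart, these Ccr2 ligands were highest, again without that share: Ccl2 by 0.32 (adjusted p 0.00497, limma), Ccl12 by 0.25 (0.00774) and Ccl7 by 0.23 (0.0262). Ccl8, also a Ccr2 ligand, was not, with means of 10.17 in hearts and 10.22 in livers of time 2.

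At time 1, liver and lung share an array run, which allows a repeat of 1 tissue contrast. There, 29 of 37 members (78.4%) passed the test, against 79.3% of all probe sets. Ccl9 was 1.51 higher in liver, and Cxcr4 and Cxcl14 were lower in liver (-2.41 and -1.53). Of these 6 lungs, 5 carried liver transcripts. At time 2, where no lung did, the differences were 2.15 for Ccl9, -3.02 for Cxcr4 and -1.19 for Cxcl14.

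The strain comparison asked which members differed between A/J and C57BL/6J within a tissue, with time as an additive term. In liver, 1 of 37 members (2.70%) passed the test, against 4.07% of all probe sets. Ccl9 had 13.19, 13.08 and 12.84 in A/J and 11.16, 11.32 and 11.69 in C57BL/6J at time 2. At time 1 it had 12.06, 11.72 and 11.88 in A/J and 11.01, 10.97 and 11.16 in C57BL/6J. Every A/J liver stood above every C57BL/6J liver. The difference was 1.24 log2 units (SE 0.14, adjusted p 9.8e-05, limma), a 2.37-fold higher level in A/J. Ccl9 differed with strain by 0.20 in lung, -0.35 in heart and -0.15 in spleen.

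The Ccl9 difference was larger at time 2 than at time 1, by 0.81 log2 units (SE 0.19, adjusted p 0.0267, limma), the 1 member called, against 4.90% of all probe sets. The call was lost, with adjusted p up to 0.0805, on leaving out any of 5 of the 12 arrays (A/J time 1 replicate 2 and time 2 replicate 1, C57BL/6J time 1 replicate 3 and time 2 replicates 1 and 2). Of 11 macrophage and monocyte markers, 3 were lower in A/J liver, whose mean over the list ran from 9.22 to 9.63 in A/J and from 9.41 to 10.03 in C57BL/6J. Its part in the result was not tested.

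In lung, 3 of 37 members (8.11%) passed the strain test, against 5.22% of all probe sets. Cxcl14, a ligand made by epithelial cells, had 7.91, 7.87 and 7.84 in A/J lungs and 9.45, 8.54 and 9.11 in C57BL/6J lungs at time 2. At time 1 it had 7.77, 7.78 and 7.78 in A/J and 9.66, 9.04 and 9.495 in C57BL/6J. The strains did not overlap, and A/J lungs varied far less than C57BL/6J lungs. Cxcl14 was lower in A/J (-1.39 log2 units, SE 0.14, adjusted p 3.79e-05, limma), a 2.62-fold difference. In C57BL/6J alone Cxcl14 was enriched in lung, by 1.29 over the next tissue (adjusted p 3.4e-05).

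Cxcl12 had 11.48, 11.40 and 11.62 in A/J lungs and 10.39, 10.44 and 10.74 in C57BL/6J lungs at time 2. At time 1 it had 10.43, 10.77 and 10.92 in A/J and 10.27, 10.29 and 10.56 in C57BL/6J. The strains were apart at time 2 and overlapped at time 1. Cxcl12 was 0.65 higher in A/J (SE 0.12, adjusted p 0.00614, limma), but the test was not passed at time 1 alone (0.33, adjusted p 0.264), nor by the other probe sets (0.27 and 0.19, adjusted p 0.182 and 0.46).

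Ccl6, a Ccr1 ligand of macrophages and neutrophils, had 9.93, 9.72 and 9.498 in A/J lungs and 9.03, 9.12 and 9.28 in C57BL/6J lungs at time 2. At time 1 it had 9.75, 9.59 and 9.75 in A/J and 9.70, 9.34 and 9.25 in C57BL/6J, where 1 C57BL/6J lung reached the A/J level. It was 0.42 higher in A/J (SE 0.10, adjusted p 0.0204, limma), and the test was not passed at time 1 alone (0.27, adjusted p 0.321) or without C57BL/6J lung time 1 replicate 3 (adjusted p 0.0523). Of the markers, 3 of 5 endothelial genes were higher in A/J lung (list mean 11.19 to 11.59 in A/J and 11.02 to 11.22 in C57BL/6J) and 3 of 7 neutrophil genes lower (9.25 to 9.96 in A/J and 9.78 to 10.66 in C57BL/6J). Among 11 macrophage and monocyte genes, 1 was higher (Cd68, 0.41) and 1 lower (Mpeg1, -0.83). Lower genes also included 2 of 4 for NK cells and 1 of 2 for megakaryocytes and platelets. Higher genes included 1 of 5 for dendritic cells and 1 of 8 for cardiomyocytes. Their part in these results was not tested.

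Cxcr4 in lung showed a strain difference that depended on time. At time 2 it had 9.81, 9.78 and 9.79 in A/J and 8.898, 8.34 and 8.75 in C57BL/6J, and at time 1 it had 8.12, 8.33 and 8.45 in A/J and 8.54, 8.42 and 8.27 in C57BL/6J. The strains overlapped at time 1 and were far apart at time 2. The difference at time 2 exceeded that at time 1 by 1.23 log2 units (SE 0.18, adjusted p 0.0147, limma), the 1 member called, against 0.177% of all probe sets. Without A/J lung time 1 replicate 1 the value was 1.14 (adjusted p 0.0618). At time 2 alone, where no lung carried liver transcripts, the strain difference was 1.13 (adjusted p 0.00122, limma); all 3 A/J lungs of time 1 carried them, so the test over both times could not be fitted without such lungs. The 3′ excess of the Gapdh control was 1.36 to 1.96 in A/J lungs and 1.05 to 1.37 in C57BL/6J lungs of time 2, and 0.66 to 0.93 in A/J and 0.64 to 1.07 in C57BL/6J at time 1. Endothelial markers (list mean 11.39 to 11.59 in A/J and 11.08 to 11.19 in C57BL/6J), B cell markers (9.86 to 10.70 in A/J and 9.67 to 9.89 in C57BL/6J) and dendritic cell markers (11.88 to 12.23 in A/J and 11.72 to 11.88 in C57BL/6J) had the higher mean in A/J lungs at time 2. Lower in A/J were the means of neutrophil (9.54 against 9.96), NK cell (6.82 against 6.93) and megakaryocyte and platelet markers (8.70 against 8.99). Macrophage and monocyte markers (9.96 against 9.95) and T cell markers (8.05 against 8.03) had near equal means. Their part in the result was not tested. The ligand Cxcl12 and the receptor were both highest in the A/J lungs of time 2 among the lungs. In heart and spleen no member passed the strain by time test in limma, against 0.386% and 0.209% of all probe sets.

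**Figure D3:**
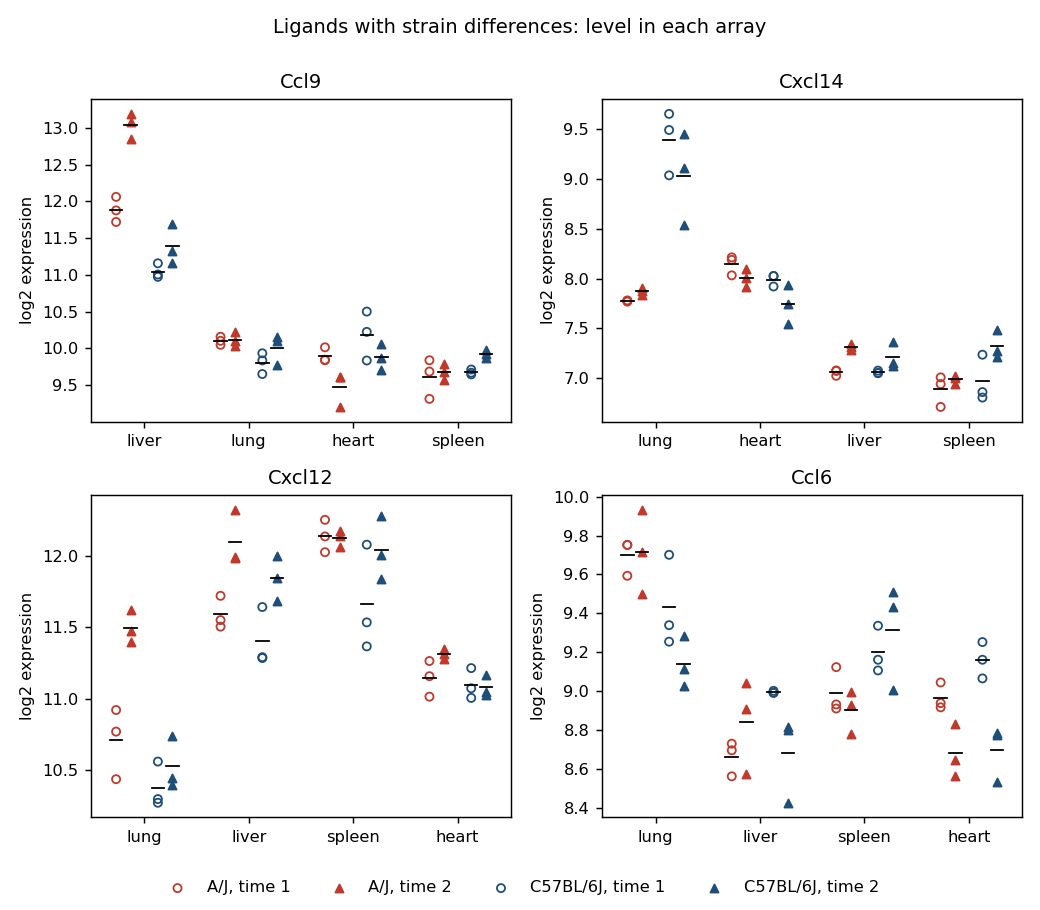
Log2 level of Ccl9, Cxcl14, Cxcl12 and Ccl6 in each of the 48 arrays, by tissue; red is A/J and blue C57BL/6J, open circles are time 1, filled triangles time 2, and short bars are means of 3 arrays. The strains stand apart for Ccl9 in liver and for Cxcl14 in lung at both times, and for Cxcl12 in lung at time 2.

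In heart, 3 of 37 members (8.11%) passed the strain test, against 7.48% of all probe sets. Cxcr4 had 7.16, 7.51 and 7.13 in A/J and 6.72, 6.86 and 6.83 in C57BL/6J at time 2, and 6.51, 6.87 and 6.88 in A/J and 6.38, 6.52 and 6.48 in C57BL/6J at time 1. It was 0.38 higher in A/J (SE 0.08, adjusted p 0.00839, limma). Ccr2 averaged 6.91 ± 0.10 in A/J and 7.21 ± 0.12 in C57BL/6J (SD, n = 6 each), lower in A/J (-0.30, SE 0.06, adjusted p 0.00713). Cxcl9 averaged 7.10 ± 0.13 in A/J and 7.35 ± 0.13 in C57BL/6J, lower in A/J (-0.25, SE 0.07, adjusted p 0.0397).

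The 5 hearts that carried airway transcripts include every C57BL/6J heart of time 1. Without them 7 arrays remain, and the strains are compared at time 2 alone. The differences were then 0.49 for Cxcr4 (adjusted p 0.0985, limma), -0.23 for Ccr2 (0.248) and -0.09 for Cxcl9 (0.621), none called. With all hearts as the start, the Cxcl9 call was lost on leaving out any of 8 arrays. Macrophage and monocyte markers, a list that holds Ccr2, were lower in A/J heart in 6 of 11 cases (list mean 9.09 to 9.35 in A/J and 9.35 to 9.63 in C57BL/6J), and 3 of 5 dendritic cell markers were lower (10.11 to 10.47 in A/J and 10.61 to 11.01 in C57BL/6J). Their part in the result was not tested.

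Ccl2, the main monocyte attractant, had 6.48, 6.85 and 6.79 in A/J hearts and 6.79, 6.999 and 7.01 in C57BL/6J hearts at time 2. At time 1 it had 6.74, 6.70 and 6.59 in A/J and 7.68, 7.22 and 9.84 in C57BL/6J. Ccl7 had 6.62, 6.39 and 6.54 in A/J and 6.76, 6.74 and 8.17 in C57BL/6J at time 1. A single C57BL/6J heart, replicate 3 of time 1, stood far above the others for both, and it also had the highest Ccl12 of the hearts, at 8.38. The strain difference did not pass the test for Ccl2 (-0.90, SE 0.36, adjusted p 0.165, limma) or Ccl7 (-0.39, adjusted p 0.326). For Ccl2 the test was passed without that heart (-0.47, adjusted p 0.028, limma) and in a fit of all 48 arrays (-0.90, adjusted p 0.00259). It was not passed without the hearts that carried airway transcripts (-0.19, adjusted p 0.509). Those include that heart and the other C57BL/6J hearts of time 1, so the -0.19 compares the strains at time 2 alone.

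**Figure D4:**
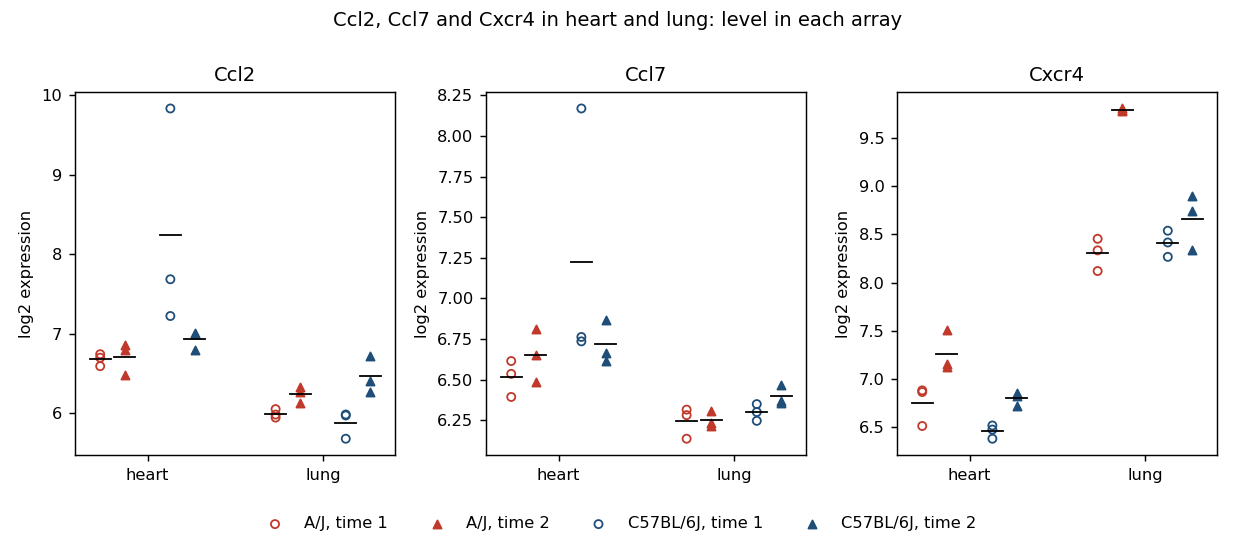
Log2 level of Ccl2, Ccl7 and Cxcr4 in each heart and lung array; red is A/J and blue C57BL/6J, open circles are time 1, filled triangles time 2, and short bars are means of 3 arrays. The C57BL/6J heart of time 1 with 9.84 for Ccl2 also has 8.17 for Ccl7, and the 3 A/J lungs of time 2 stand together at 9.78 to 9.81 for Cxcr4.

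In spleen, 4 of 37 members (10.8%) passed the strain test, against 12.7% of all probe sets. Cxcr2, the receptor of neutrophil attractants, had 7.20, 6.99 and 7.25 in A/J and 7.59, 7.52 and 7.39 in C57BL/6J at time 2, and 7.39, 7.35 and 7.23 in A/J and 7.75, 7.74 and 7.66 in C57BL/6J at time 1. The strains did not overlap at either time. Cxcr2 was lower in A/J (-0.37, SE 0.06, adjusted p 0.00156, limma). Its mean over both strains and times was close in all tissues, at 7.42 in spleen, 7.38 in liver, 7.35 in heart and 7.29 in lung. A signal near background was not excluded for this probe set. Ccr6 averaged 10.53 ± 0.15 in A/J and 10.82 ± 0.11 in C57BL/6J (SD, n = 6 each), lower in A/J (-0.29, SE 0.07, adjusted p 0.0141).

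Ccl6 in spleen averaged 8.94 ± 0.11 in A/J and 9.26 ± 0.20 in C57BL/6J (SD, n = 6 each), lower in A/J (-0.31, SE 0.09, adjusted p 0.0378, limma), the opposite sign to lung. Cxcl5 averaged 6.86 ± 0.20 in A/J and 6.54 ± 0.10 in C57BL/6J, 0.31 higher in A/J (SE 0.08, adjusted p 0.0264). Ccl6 lost its call on leaving out any of 8 of 12 arrays and Cxcl5 any of 6. Without the 5 spleens that carried pancreas transcripts, which leaves 7 arrays, none of the 4 passed (adjusted p 0.0647 to 0.408, limma), with differences of -0.36 for Cxcr2, -0.34 for Ccr6, -0.44 for Ccl6 and 0.28 for Cxcl5, and Cxcr2 alone passed without the 3 that carried liver transcripts (-0.39, adjusted p 0.0335). For the member Cxcl12 the difference of 0.28 did not pass (adjusted p 0.175), while another of its probe sets did (0.40, adjusted p 0.0152).

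The splenic cell markers moved with strain as well, in a tissue where 12.7% of all probe sets passed the strain test. Neutrophil genes were higher in A/J in 5 of 7 cases (list mean 10.26 to 11.12 in A/J and 9.33 to 10.42 in C57BL/6J). The probe set of Cxcr2, whose mean level was close in all tissues, was lower. Erythroid genes were higher in 6 of 7 (11.66 to 12.51 in A/J and 9.34 to 11.63 in C57BL/6J). B cell genes were lower in 3 of 5 (12.13 to 12.44 in A/J and 12.58 to 12.93 in C57BL/6J) macrophage and monocyte genes in 6 of 11 (10.72 to 11.02 in A/J and 11.42 to 11.78 in C57BL/6J), dendritic cell genes in 3 of 5 (12.48 to 12.57 in A/J and 12.89 to 12.96 in C57BL/6J) and NK cell genes in 2 of 4 (7.05 to 7.20 in A/J and 7.43 to 7.69 in C57BL/6J). Their part in the results was not tested.

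**Figure D5:**
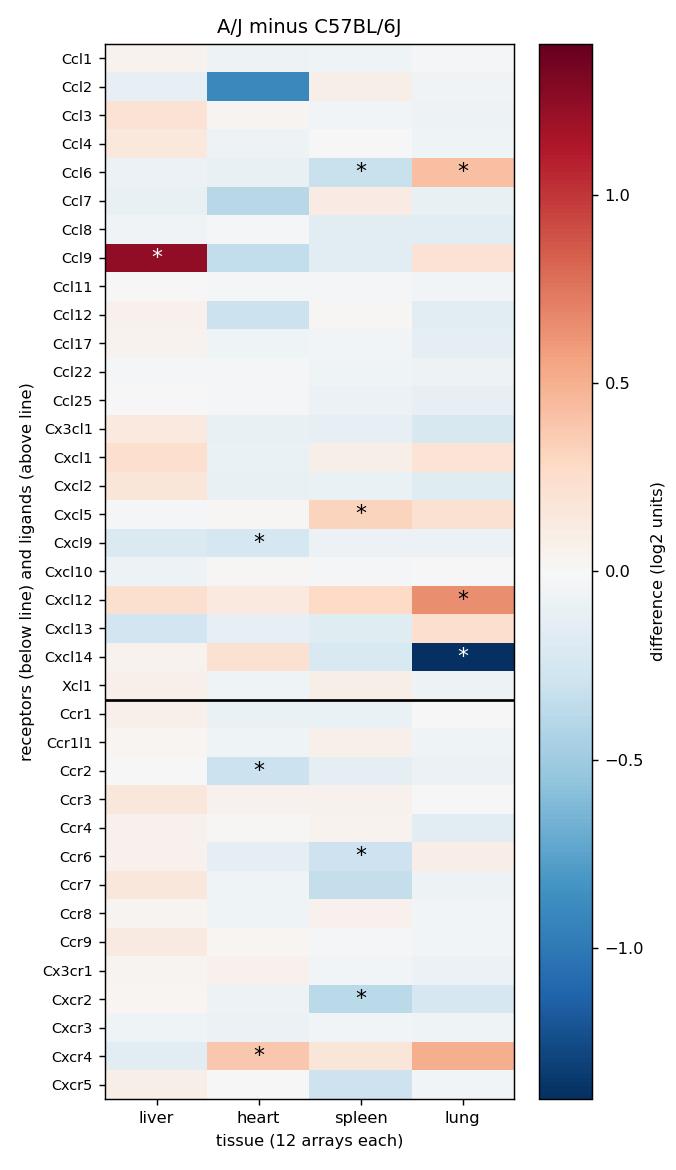
Difference in log2 level, A/J minus C57BL/6J, for each of the 37 members (rows, ligands above the line and receptors below) in each tissue (columns, 12 arrays each); stars mark adjusted p below 0.05. Ccl9 in liver (1.24) and Cxcl14 in lung (-1.39) are the widest differences that carry a star, and Ccl2 in heart (-0.90) carries none.

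Tissues differed in their strain effect for 7 of 37 members (18.9%) by the limma F test, against 18.5% of all probe sets. Cxcl14 differed by 0.05 in liver, 0.21 in heart, -0.21 in spleen and -1.39 in lung (adjusted p 2.97e-11). Ccl9 differed by 1.24, -0.35, -0.15 and 0.20 in the same tissue order (adjusted p 1.29e-09), and Ccl6 by -0.09, -0.11, -0.31 and 0.42 (adjusted p 0.000693). The others were Ccr6 (adjusted p 0.00093), Cxcr2 (0.00262), Ccr7 (0.0411) and Cx3cl1 (0.0429). On leaving out single arrays the Ccr7 call was lost for 14 of 48 and the Cx3cl1 call for 13. The other Cx3cl1 probe set did not pass (adjusted p 0.859), nor did the mean of both (0.4). The share of members called was near that of all probe sets.

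Other genes of the pathway were read from 3 lists, with 11 of 12 atypical receptors and related ligands measured, 20 of 32 signalling genes and 11 of 14 genes of lymphotoxin and TNF induction. Of all probe sets, 4.07% passed the strain test in liver, 7.48% in heart, 12.7% in spleen and 5.22% in lung. In liver the chemerin gene Rarres2, a related attractant, was lower in A/J (-0.43, adjusted p 0.0084, limma), with none called in the other lists. In heart, Cd74, the MHC class II chaperone and MIF receptor, was lower (-1.28, adjusted p 0.000117), as was Ccrl2 (-0.25), while Rarres2 was higher (0.15). Of signalling genes in heart, Rgs2 (0.67) and Gnb1 (0.32) were higher and Grk5 (-0.46), a receptor kinase, lower.

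In spleen, 2 atypical receptors or related genes were higher in A/J and 1 was lower: Ackr1 (0.55) and Ccrl2 (0.28), and Ackr3 (-0.49), a scavenger of Cxcl12. Signalling genes split 1 higher (Arrb1, 0.72) and 2 lower (Jak3, -0.56, and Fgr, -0.52). In the lymphotoxin and TNF list 3 of 11 were lower in A/J spleen: Ltb, a subunit of the lymphotoxin that induces Cxcl13 in stroma (-0.58, adjusted p 0.000871, limma), Nfkb2 (-0.47) and Tnfrsf1b (-0.47). Cxcl13 itself differed by -0.17 and did not pass. In lung only Gnb1 passed (0.71).

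Time 2 minus time 1 is given as values, since the array run changed with it. In liver 20 of 37 members passed (54.1% against 50.3% of all probe sets; 5 higher at time 2, against 20.2%, and 15 lower, against 30.1%), led by Ccl9 (0.75), Cxcl12 (0.48) and Cxcl1 (0.46), with Cxcr3 (-0.41) and Ccl1 (-0.40) lower. In heart 11 passed (29.7% against 34.9% of all probe sets; 2 higher at time 2, against 15.7%, and 9 lower, against 19.3%), among them Cxcr4 (0.43) and Ccl6 (-0.38). In spleen 12 passed (32.4% against 31.9% of all probe sets; 5 higher at time 2, against 13.0%, and 7 lower, against 18.9%), among them Ccr7 (0.51), Ccl2 (0.46) and Cxcr5 (0.40). In lung 10 passed (27.0% against 34.7% of all probe sets; 4 higher at time 2, against 15.8%, and 6 lower, against 18.9%), among them Cxcr4 (0.87), Ccl2 (0.42) and Ccr1 (-0.58), and 8 of 8 hepatocyte genes were lower at time 2, whose part in the result was not tested. Ccl1 was lower at time 2 in all 4 tissues by the member's probe set (-0.40 in liver, -0.28 in heart, -0.35 in spleen and -0.28 in lung), but the mean over its 2 probe sets did not pass in heart (adjusted p 0.297, limma) or lung (0.161).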

How the data were processed

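RNA was measured on 48 Affymetrix MG-U74Av2 arrays, 3 in each of 16 groups, from about 20 µg of total RNA each, per the labels. Values were used as the authors deposited them, on a log2 scale, and the normalization behind them is not stated in the labels. The 66 control probe sets were left out and no filter on low values was applied. Gene symbols came from the platform's probe table, which gave 1 symbol for 10833 probe sets, several for 396 and none for 1193.

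All fits were made in limma 3.58.1 (R 4.3.3), with Benjamini-Hochberg adjustment over 12422 probe sets and a limit of 0.05. Strain was fitted in the 12 arrays of a tissue with time as an additive term, time with strain, strain by time as the interaction, tissue in the 24 arrays of time 2 with strain, and strain by tissue as an F test over 48 arrays. The number of arrays limits the precision. The calculations were tested on simulated data. Every member could be named. Per-array values, or means with the standard deviation, went to members that passed a strain, enrichment or strain by time test. A strain by tissue result got its difference in each tissue, and time up to 3 genes per direction and tissue. Ccl2, Ccl7 and Ccl12 in heart were given per array after their values were seen. The members and gene lists were chosen with earlier results of these data known. Marker list levels are means of log2 values. Promoter windows came from RefSeq.

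Alternatives were an intensity trend, quantile normalization, median centring, all 48 arrays in 1 fit, a filter on the mean, the mean over a gene's probe sets, each time or strain alone, other enrichment limits, a replicate block, and leaving out each array. Leaving out arrays with transcripts of another organ was chosen after seeing the data.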

Additional observations from a re-analysis of the deposited data

Results flagged for a closer look

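The strain difference departed between times for 2 members by the interaction term of limma. Ccl9 in liver differed by 0.81 log2 units more at time 2 than at time 1 (adjusted p 0.0267). Cxcr4 in lung differed by 1.23 more (adjusted p 0.0147).

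The strain difference departed between tissues for 7 members by the limma F test over 48 arrays. The gap between the highest and the lowest of the 4 tissue differences was 1.60 log2 units for Cxcl14 (lung lowest, heart highest), 1.59 for Ccl9 (liver highest, heart lowest) and 0.73 for Ccl6 (lung highest, spleen lowest). It was 0.40 for Cxcr2, 0.38 for Ccr6, 0.49 for Ccr7 and 0.35 for Cx3cl1, with adjusted p of 0.00262, 0.00093, 0.0411 and 0.0429. Groups of 3 arrays were too small for a test of outlying arrays.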

How the results depend on the processing

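None of the 52 gene results changed sign in 1353 repeats, and 116 repeats lost the call. Leaving out 1 array made up 936 of the repeats, which share most of their data, and lost 66 calls. Other settings made up 417 and lost 50. Nearly all results were named because they had passed a test, which made a change of sign unlikely. For the 7 strain by tissue results, whose value is a gap between tissues, no change of sign was possible. Ccl9 in liver and Cxcl14 in lung kept their strain calls in every setting that tested them. The filter on the mean left Cxcl14 in lung untested. The counts below show how the calls moved with the setting. They are given without the share of all probe sets, which can move too. In the 48-array fit, members called were 2 for strain in liver, 4 in heart (Ccl2, Ccl12, Ccl9 and Ccr2, without Cxcr4 and Cxcl9), 7 in spleen and 6 in lung, and for strain by time 2 in liver, 2 in spleen and 3 in lung. With time 2 alone, strain called 4 in liver, 1 in heart and 0 in spleen, and strain by tissue 11. With time 1 alone, strain in heart called 0. Quantile normalization gave 5 for strain in lung. Without arrays carrying other organs' transcripts, strain called 0 in heart, in spleen 0 (pancreas) or 1 (liver), and in lung 4 (Cxcr4 added). The heart and lung fits then rest on time 2, and the spleen fit without liver transcripts rests on time 1. An intensity trend and the mean over a gene's probe sets each gave 2 for strain by time in liver.

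The filter to probe sets above the median, which tests fewer members, gave for time 10 in liver, 4 in heart, 7 in spleen and 4 in lung, for strain 1 in heart, for strain by time 2 in liver and 0 in lung, 10 for liver against lung, and 1 enriched in spleen. With no minimum difference, 2 were enriched in liver, 3 in heart, 10 in spleen and 4 in lung, and with 2 log2 units 1 in spleen. Time 1 gave 1 enriched in heart (Ccl2, 1.24), and C57BL/6J alone 1 in lung (Cxcl14). Hearts of time 1 had a Ccl2 mean of 7.46 and a median of 6.98, with 1 heart at 9.84. They were alone in their array run, so tissue and run cannot be told apart there.

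Leaving out each array gave 1 to 2 strain calls in liver, 2 to 4 in heart, 2 to 4 in spleen and 2 to 4 in lung, and for strain by time 0 to 4 in liver and 0 to 2 in lung. Strain by tissue gave 5 to 9. The 4 strain by time calls in liver came without A/J time 2 replicate 2. There 1213 of all probe sets were called, against 609 with every array. Array numbers are not known to pair animals: of 6 strain pairs per tissue, 0 in liver, 2 in heart, 2 in spleen and 3 in lung had deviations correlated above 0.1. Strain pairs cannot come from 1 animal, whereas tissue pairs of the same strain, time and number could. Among those, 6 of 36 at time 1 and 8 of 36 at time 2 had deviations correlated above 0.1. The main fits treat arrays of different tissues as independent, and whether tissues shared an animal was not tested. With the replicate block, strain by time in liver called 0 (Ccl9 0.81, adjusted p 0.0733, limma), Ccr6 (-0.29, 0.0514) and Ccl6 (-0.31, 0.0663) in spleen, Cxcl9 in heart (-0.25, 0.0758) and, for strain by tissue, Ccr7 (0.0513) and Cx3cl1 (0.116) missed the limit, and Ccr7 in spleen passed it (-0.33, 0.0332). The cause of these changes was not tested. Signal near background limits the low members, such as Cxcl10.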
